A study of Mus musculus with 2197 samples.

Results

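Cells sorted from the mouse embryonic pancreas at E15.5 (E gives the embryonic day) for the reporter Ins1-RFP were compared with cells sorted on the same day for a high level of the reporter Ngn3-GFP, as a step from endocrine precursor to beta cell. The Ins1-RFP+ group held 39 cells in 2 sets (10 and 29 cells), and the Ngn3-GFPhigh group held 51 cells in 2 sets (21 and 30 cells). These 90 cells are 90 of the 2195 single cells of the study, which followed pancreatic cells through development with Smart-seq2, a method that amplifies and sequences the messenger RNA of 1 cell at a time. They were chosen by their titles alone, with no measured value. For reference, the text also gives Gcg-GFP+ cells of E15.5 (36 cells, 2 sets), sorted on a glucagon reporter, and Ngn3-GFPhigh cells of E13.5 (77 cells, 3 sets) and E14.5 (108 cells, 3 sets). The labels name no treatment. The labels name the reporters but not how they were built, the strain, or whether embryos were pooled, so a difference between the reporter lines and a difference between the cells cannot be told apart.

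Neurog3, the gene that encodes Ngn3, is a basic helix-loop-helix transcription factor that is switched on briefly in epithelial progenitors of the pancreas and commits them to the endocrine lineage. The precursors stop dividing, shut Neurog3 down and go on to become beta, alpha, delta, epsilon or PP cells. Fluorescent protein outlasts the RNA it was made from, so a sort on an Ngn3 reporter collects cells that are past Neurog3 expression as well as cells within it. Beta cells make insulin in large amounts, as a precursor protein that is folded and disulfide-bonded in the endoplasmic reticulum (ER) before it is cut and stored in granules. Because the cells were sorted on these 2 genes' reporters, the levels of Ins1 and Neurog3 are in part set by the sort.

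The 4 sets held between 9352969 and 37117826 counts, and each level below is in CPM per set, which sets a gene count against the size of its library with TMM factors applied. Median numbers of detected genes per cell ran from 7462 to 8895 over the 4 sets. Ins1, Ins2 and Iapp together took 10.1% and 12.6% of the counts of the Ins1-RFP+ sets and 1.67% and 2.46% of those of the Ngn3-GFPhigh sets. Spike-in (ERCC) reads took a median of 3.06% and 3.73% of a cell's reads in the Ins1-RFP+ sets and 5.08% and 5.04% in the Ngn3-GFPhigh sets, and the part of this difference in the results was not tested. Replicates are sets, which the labels do not define, so a p-value here speaks only for how far sets vary, and that may be technical variation. In sums over cells, fewer cells of a kind and less RNA per cell cannot be told apart. The 14 duct and trunk markers summed to 1308 and 2091 CPM in the Ins1-RFP+ sets and 3086 and 2379 CPM in the Ngn3-GFPhigh sets. Of these markers, 1 was at 0 throughout. A fit without the cells that carried 4 or more markers of this list is given below. No cell of the 90 carried 4 or more markers of leukocytes, mesenchyme, endothelium, acinar cells, red cells or neural cells at 100 CPM, and those lists summed to at most 127 CPM in any set, except the neural and glial list, at 224 to 410 CPM over the 4 sets.

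With edgeR's quasi-likelihood test and Benjamini-Hochberg adjustment, 92 of 17762 genes passed an adjusted p of 0.05, which is 0.518%. Of these, 19 were higher in Ins1-RFP+ cells (0.107%) and 73 were lower (0.411%). The genes that were higher included the ER chaperone genes Hyou1 and Hsp90b1, and those that were lower included Neurog3, Epb4.2 and Mdk. The mean level of Ins1 was 8.00-fold and that of Ins2 7.40-fold higher, but neither passed. The count rested on few sets. Without set 1 of the Ins1-RFP+ cells, 0 genes were higher and 24 lower (1632 genes at an unadjusted p under 0.05). Without set 2 of that group the numbers were 15 and 130. Without Ngn3-GFPhigh set 1 they were 0 and 15 (1490 genes at an unadjusted p under 0.05), and without its set 2 they were 5 and 40. DESeq2 called 310 higher and 559 lower, and a fit of only the 4 sets called 0 and 1 (1802 genes at an unadjusted p under 0.05). Cells with at least 4 duct and trunk markers at 100 CPM numbered 7 of 39 and 12 of 51. All 39 Ins1-RFP+ cells, these 7 among them, also reached 100 CPM of Ins2. Over the 12 sets of the fit, 71 cells carried at least 4 markers of another type, in each case the duct and trunk list. Without these 71 cells, 1 gene was higher and 7 lower, and 0 of the 19 and 6 of the 73 calls were kept. The cause of this drop was not tested.

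**Figure D1:**
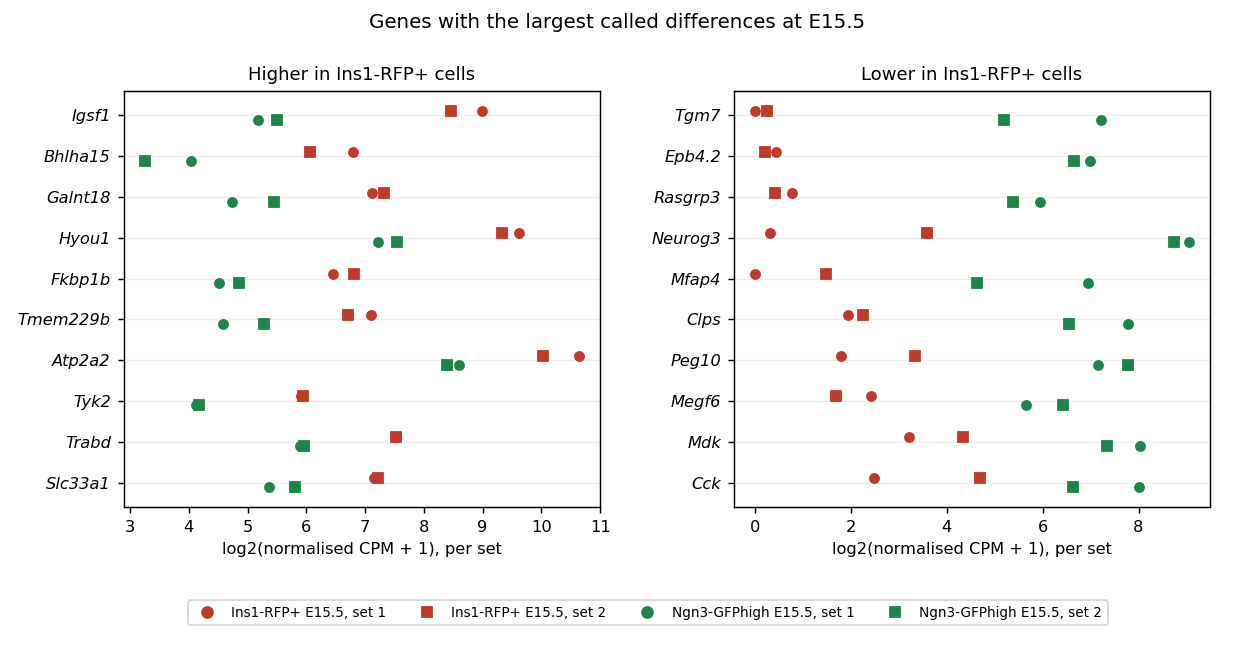
Level of the 10 genes with the largest called increase (left) and the 10 with the largest called decrease (right) in Ins1-RFP+ cells, as log2(normalised CPM + 1) on the horizontal axis. Each point is 1 set of cells of E15.5 (red Ins1-RFP+, green Ngn3-GFPhigh, circle set 1, square set 2), and in each gene both red points lie on one side of both green points, as the rule for naming genes requires.

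The largest called increase was in Igsf1, which encodes a membrane glycoprotein of the immunoglobulin superfamily. Its level was 504 and 351 CPM in the Ins1-RFP+ sets and 35.3 and 44 CPM in the Ngn3-GFPhigh sets. The log2 fold change was 3.43 ± 0.53 (SE, edgeR, adjusted p = 0.0243). Each such SE and p sets 2 sets against 2. The spread behind it comes from 1 fit of 12 sets in 5 groups, other days and sorts included. In the edgeR fit of only the 4 sets the adjusted p of Igsf1 was 0.109. In single cells, 29 of 39 Ins1-RFP+ cells and 5 of 51 Ngn3-GFPhigh cells reached 100 CPM, and all 5 of the latter also carried Ins2. Bhlha15 (also called Mist1), a transcription factor known from cells with a high secretory load such as acinar cells, had 110.0 and 65.9 CPM against 15.4 and 8.55 CPM (log2 2.88 ± 0.44, adjusted p = 0.0243). Bhlha15 is a member of the acinar list, whose other members were not called, and no cell carried 4 markers of that list. Galnt18, which encodes a member of the family of enzymes that start O-linked glycosylation, followed with 138 and 159 CPM against 25.6 and 42.8 CPM.

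Atp2a2 encodes SERCA2, the pump that fills the ER with calcium, and had 1586 and 1040.3 CPM against 385 and 336 CPM (log2 1.87 ± 0.34, adjusted p = 0.0477). Fkbp1b encodes a protein that binds calcium release channels, and had 86.6 and 111 CPM against 21.8 and 27.7 CPM (log2 2.00 ± 0.35, adjusted p = 0.0401). Jph3, a junctophilin that holds the ER to the plasma membrane, was called at a low level (21.9 and 23.6 CPM against 2.59 and 3.75 CPM, adjusted p = 0.0491), and missed the threshold when any set was left out (0.0927 to 0.325). Slc33a1, the transporter that brings acetyl-CoA into the ER, had 142 and 148 CPM against 40.2 and 55.1 CPM. The kinase gene Tyk2, together with Trabd and Tmem229b, completes the 10 largest increases, with log2 changes of 1.84, 1.62 and 1.98. Leaving out Ins1-RFP+ set 1 ended all 10 of these calls (adjusted p from 0.0899 for Hyou1 to 0.219 for Atp2a2), as did leaving out Ngn3-GFPhigh set 1 (0.0783 for Bhlha15 to 0.323 for Galnt18) and Ngn3-GFPhigh set 2 (0.0645 for Hyou1 to 0.196 for Atp2a2). Leaving out Ins1-RFP+ set 2 ended those of Fkbp1b, Galnt18, Tyk2 and Slc33a1 (0.0639 to 0.123).

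The ER folding genes stood higher as a group. All 16 members of the list of ER folding and unfolded protein response genes were higher in both Ins1-RFP+ sets than in both Ngn3-GFPhigh sets, an order that 18.7% of all genes tested showed. Their median log2 fold change was 1.22, against 0.00 over all genes tested, with a range of 0.16 to 2.07. Of the 16, only Hsp90b1 passed the adjusted threshold (background 0.107% higher), and 14 had an unadjusted p under 0.05, as did 2102 of all 17762 genes. Hsp90b1 encodes GRP94, the ER form of the HSP90 chaperones. Its level was 3079 and 2603 CPM against 942 and 1218 CPM (log2 1.40 ± 0.22, adjusted p = 0.0252), and without Ins1-RFP+ set 1, Ngn3-GFPhigh set 1 or Ngn3-GFPhigh set 2 its adjusted p was 0.14, 0.189 and 0.0614.

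Hspa5 and Sdf2l1 had larger log2 values than Hsp90b1, with wider errors. Hspa5, which encodes BiP, the main HSP70 chaperone of the ER, had 4862 and 4308 CPM against 1156 and 1559 CPM (log2 1.76 ± 0.39, adjusted p = 0.0801). The largest log2 value of the list belonged to Sdf2l1, a partner of BiP, with 789.7 and 677 CPM against 135 and 215 CPM (2.07 ± 0.52, adjusted p = 0.12). The disulfide isomerase family was represented by Pdia3, Pdia4 and Pdia6, with log2 values of 1.05, 1.68 and 1.43. The smallest values belonged to the transcription factor Atf4 (149.6 and 153 CPM against 149 and 122 CPM, log2 0.16) and to the lectin chaperone gene Canx (log2 0.79). Ddit3, which encodes the stress-induced factor CHOP, stood at 19.9 and 32 CPM against 12.2 and 13.4 CPM (log2 1.02 ± 0.71, adjusted p = 0.597).

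Hyou1, P4hb and Spcs3 are not in the list and were called. Hyou1, an HSP70-like chaperone of the ER, had 781 and 646 CPM against 147 and 185 CPM (log2 2.1 ± 0.30, adjusted p = 0.0184). P4hb encodes protein disulfide isomerase itself and had 1924 and 1626 CPM against 918 and 961 CPM (log2 0.92 ± 0.17, adjusted p = 0.0477). Spcs3, a subunit of the signal peptidase that trims new secretory proteins, had 504 and 467 CPM against 191 and 208 CPM (log2 1.28 ± 0.20, adjusted p = 0.0252). P4hb, Spcs3 and Hyou1 were no longer called without Ins1-RFP+ set 1 (0.21, 0.134 and 0.0899), without Ngn3-GFPhigh set 1 (0.251, 0.189 and 0.135) or without Ngn3-GFPhigh set 2 (0.163, 0.102 and 0.0645). In earlier Ngn3-GFPhigh cells Hyou1 stood at 54.3, 85.1 and 74 CPM in the 3 sets of E13.5, below both sets of E15.5, and at 105, 183 and 146 CPM in those of E14.5, which overlap them.

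**Figure D2:**
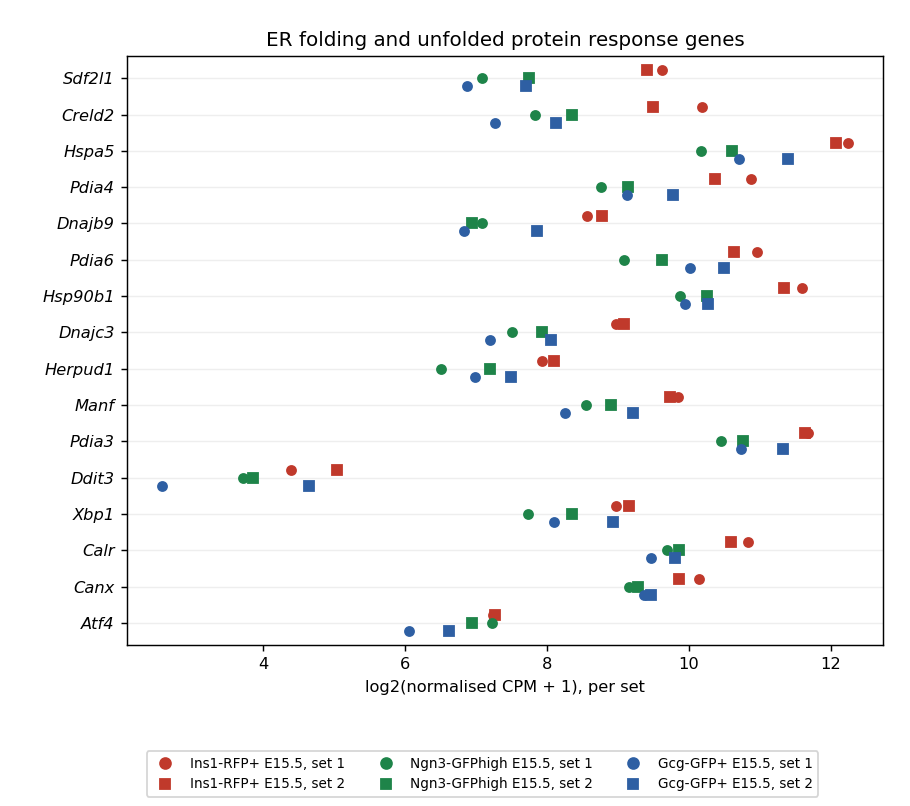
Level of the 16 ER folding and unfolded protein response genes as log2(normalised CPM + 1), with 1 point per set of E15.5 cells (red Ins1-RFP+, green Ngn3-GFPhigh, blue Gcg-GFP+, circle set 1, square set 2). Both red points lie to the right of both green points in all 16 genes.

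Many ER chaperone genes are controlled through a promoter element known as the ER stress response element (ERSE), so the promoters of the list were searched for it. The search used CCAAT and CCACG with any 9 bases between them, on both strands, from 250 bases before to 50 bases after the annotated start (RefSeq, build GRCm38.p6). Of the 16 genes, 15 had a promoter in the table, and 7 of these held the element (46.7%): Calr, Canx, Creld2, Dnajc3, Hsp90b1, Hspa5 and Pdia6. It was held by 39 of all 32851 promoters (0.119%). The related element ERSE-II (ATTGG and CCACG with any 1 base between them) was held by Herpud1 alone of the list and by 0.0365% of all promoters, and the element UPRE (TGACGTGG) by none of the list and 0.676% of all. A promoter was in the table for 14 of the 19 genes called higher, of which only Hsp90b1 held the ERSE. Hyou1, Spcs3 and Atp2a2 were among those without a promoter, so they were not searched. The UPRE was held by Fkbp1b alone of the genes called higher. Of the 73 genes called lower, 49 had a promoter, and 0 held the ERSE. The 250 bases before the start are shown for the called gene Hsp90b1, which had 2 matches, and for Hspa5 and Pdia6, with the fixed letters of each ERSE in capitals. The list was chosen as genes of the unfolded protein response, so a share above that of all promoters could be foreseen from that choice. It is not a result of these cells. A match is a description of the sequence only.
Hsp90b1 (chr10:86705445-86705694, minus strand): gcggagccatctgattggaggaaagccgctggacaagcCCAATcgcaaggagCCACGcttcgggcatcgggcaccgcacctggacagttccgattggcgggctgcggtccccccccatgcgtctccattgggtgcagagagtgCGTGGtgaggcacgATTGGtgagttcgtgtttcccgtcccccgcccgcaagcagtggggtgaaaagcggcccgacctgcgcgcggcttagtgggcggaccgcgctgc
Hspa5 (chr2:34771840-34772089, plus strand): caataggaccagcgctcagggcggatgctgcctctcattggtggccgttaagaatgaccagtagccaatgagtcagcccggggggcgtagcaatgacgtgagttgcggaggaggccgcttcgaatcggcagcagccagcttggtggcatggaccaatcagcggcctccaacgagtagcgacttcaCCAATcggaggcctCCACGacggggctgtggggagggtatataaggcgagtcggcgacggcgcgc
Pdia6 (chr12:17266339-17266588, plus strand): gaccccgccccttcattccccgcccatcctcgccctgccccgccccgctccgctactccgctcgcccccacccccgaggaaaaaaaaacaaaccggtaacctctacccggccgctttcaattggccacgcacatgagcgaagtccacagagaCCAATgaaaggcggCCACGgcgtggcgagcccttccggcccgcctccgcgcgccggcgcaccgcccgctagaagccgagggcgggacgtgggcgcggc
In Hspa5 the element ended 47 bases before the start, in Pdia6 80 bases before it, and in Hsp90b1 the nearer of the 2 matches, on the opposite strand, ended 89 bases before it.

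The insulin genes were high in every Ins1-RFP+ cell and already present in part of the Ngn3-GFPhigh cells. Ins2 stood at 66341 and 72135 CPM in the Ins1-RFP+ sets and 7174 and 11547 CPM in the Ngn3-GFPhigh sets (log2 2.89 ± 1.31, adjusted p = 0.422). Ins1 had 28407 and 47619 CPM against 4089.8 and 5409 CPM (log2 3.00 ± 0.85, adjusted p = 0.181). The 2 genes are near-identical copies, so reads may have been split between them. Iapp, the amyloid peptide released with insulin, had 16992 and 23054 CPM against 5123 and 8545 CPM (log2 1.55 ± 1.39, adjusted p = 0.72). In all 3 genes both Ins1-RFP+ sets lay above both Ngn3-GFPhigh sets, and none passed the test in the main fit. Among the alternatives, Ins1 passed in 2 of 14, Ins2 in 1 of 14 and Iapp in 1 of 13. The Ngn3-GFPhigh sets that shared the fit ranged from 2.22 to 8171 CPM for Ins2 at E13.5 and E14.5. Per transcript length, on the authors' TPM scale, Ins2 was the most abundant of the 3 in Ins1-RFP+ cells, at 162485 and 161451 TPM, followed by Ins1 (39020.5 and 63448 TPM) and Iapp (30239 and 38024 TPM), with no overlap between neighbours in that order.

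Of the 18 insulin and granule cargo genes, 0 were called (background 0.518%), 7 had an unadjusted p under 0.05 (2102 of all 17762 genes did), and the median log2 fold change was 0.73. Both Ins1-RFP+ sets were above both Ngn3-GFPhigh sets in 13 members (18.7% of all genes) and below them in 2 (20.7% of all genes). The granins Scg2 and Scg5 stood at log2 2.34 ± 1.08 and 2.23 ± 0.53, with adjusted p of 0.43 and 0.102. The proinsulin convertase gene Pcsk1 had 896 and 957 CPM against 616 and 528 CPM (log2 0.70 ± 0.29, adjusted p = 0.371). The 2 members that stood lower were Pam, the enzyme that amidates peptide hormones (331 and 565 CPM against 782 and 998 CPM), and Ptprn2, a membrane protein of granules (360.0 and 289 CPM against 471 and 592 CPM).

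The 20 beta cell transcription factors had a median log2 fold change of 0.17, and 0 of them were called. Pdx1, required for the pancreas and for beta cell function, stood at 524 and 552 CPM against 477 and 447 CPM, a log2 difference of 0.22 with a 95% interval of -0.76 to 1.20. Neurod1, a direct target of Neurog3, had overlapping sets (424 and 578 CPM against 593 and 447 CPM, interval -0.55 to 0.44), as did Pax6 (interval -0.41 to 0.65) and Nkx6-1 (242 and 209 CPM against 267 and 99.8 CPM, interval -1.30 to 1.90). All 4 intervals include 0 and lie within 2 on the log2 scale in either direction. Mafa, the Maf factor of mature beta cells, reached only 4.95 and 0.58 CPM in Ins1-RFP+ cells and 0.44 and 0.0715 CPM in Ngn3-GFPhigh cells. The member nearest the threshold was Mlxipl, which encodes the glucose-responsive factor ChREBP, with 1243 and 1062 CPM against 577 and 666 CPM (log2 0.89 ± 0.18, adjusted p = 0.0639). The lowest log2 value was that of St18, a zinc finger factor, at 121 and 167 CPM against 313 and 342 CPM (log2 -1.18 ± 0.35, adjusted p = 0.193).

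Among the 22 genes of glucose sensing and secretion, 21 had a positive log2 fold change, against 47.5% of all genes tested, and the median was 0.92. Both Ins1-RFP+ sets were above both Ngn3-GFPhigh sets in 16 members, against 18.7% of all genes, but 0 were called higher. The glucose transporter gene Slc2a2 had 474 and 571 CPM against 135 and 125 CPM (log2 2.00 ± 1.33, adjusted p = 0.576), and G6pc2, the islet glucose-6-phosphatase, had 729 and 1033 CPM against 308 and 335 CPM. Ero1lb, the ER oxidase that drives disulfide formation in proinsulin, came closest to the threshold at 1043 and 1200.5 CPM against 256 and 431 CPM (log2 1.71 ± 0.34, adjusted p = 0.0569). Ucn3, a marker of mature beta cells, was low in both groups (29.9 and 52.8 CPM against 17.9 and 13 CPM). The only called member was lower (background 0.411%). Rgs4, a brake on G protein signalling, had 0.353 and 0.0915 CPM against 27.7 and 33.2 CPM (log2 -7.52 ± 1.41, adjusted p = 0.0483), and its adjusted p rose to 0.102 to 0.183 when any of the 4 sets was left out.

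**Figure D3:**
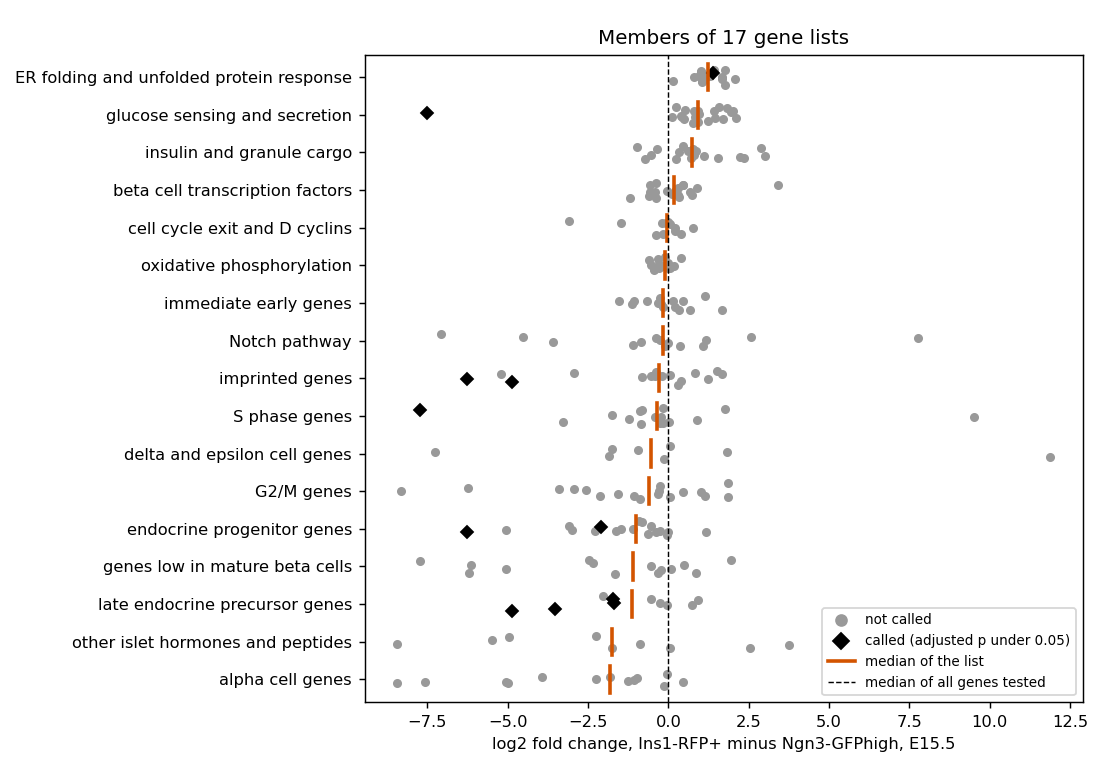
Log2 fold change of each tested member of 17 gene lists, Ins1-RFP+ minus Ngn3-GFPhigh at E15.5, with called members as black diamonds, other members as grey circles, the median of each list as an orange bar and the median of all genes tested as a dashed line. The ER folding list lies wholly to the right of 0 with a median of 1.22, and the endocrine progenitor and late precursor lists have medians of -1.01 and -1.13. The alpha cell genes (-1.80) and other islet hormones and peptides (-1.77) lie lower, and the genes low in mature beta cells have a median of -1.11. Lists of other cell types, among them the duct and trunk genes (-1.32), are not drawn.

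Neurog3 was nearly absent from the Ins1-RFP+ cells. It stood at 0.236 and 11.1 CPM in their 2 sets and at 528 and 424 CPM in the Ngn3-GFPhigh sets (log2 -6.26 ± 0.97, adjusted p = 0.0243), and its adjusted p was 0.0743 without Ngn3-GFPhigh set 1. In earlier Ngn3-GFPhigh cells it stood at 1098, 1009 and 938 CPM at E13.5, above both sets of E15.5, and at 819, 898 and 485 CPM at E14.5, which overlap them. Of the 18 endocrine progenitor genes 2 were called, both lower (background 0.411%), 14 were below in both sets (background 20.7%), and the median log2 fold change was -1.01. The second call was Smarcd2, a subunit of the SWI/SNF chromatin remodelling complex, at 60.3 and 35.2 CPM against 226 and 181 CPM (log2 -2.1 ± 0.35, adjusted p = 0.0317). Its call was lost when any of the 4 sets was left out (0.0692 to 0.14). Pax4, a repressor that favours the beta over the alpha fate, just missed the threshold at 15.7 and 42.9 CPM against 336 and 134 CPM (log2 -2.98 ± 0.55, adjusted p = 0.0508). Amotl2, a junction-associated regulator of Hippo signalling, had 52.5 and 18.9 CPM against 167 and 176 CPM (adjusted p = 0.0921), and the cell cycle inhibitor gene Cdkn1a had 5.65 and 95.5 CPM against 504 and 376 CPM (adjusted p = 0.163). Hes6 and Gadd45a, known from the same progenitor stage, stood at log2 -0.54 and -1.49.

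Genes outside the lists with the largest called decreases were nearly absent from the Ins1-RFP+ cells too. Epb4.2, which encodes a membrane skeleton protein first known from red cells, had 0.353 and 0.153 CPM against 125 and 100 CPM (log2 -9.08 ± 0.56, adjusted p = 8.74e-05), and its adjusted p stayed at or under 0.00245 when each of the 4 sets was left out in turn. The 8 erythroid markers summed to 7.19 and 3.69 CPM in the Ins1-RFP+ sets and 11.3 and 36.8 CPM in the Ngn3-GFPhigh sets, with 1 member at 0 throughout, and their part in the Epb4.2 result was not tested. Tgm7, a transglutaminase gene, had 0 and 0.183 CPM against 148 and 35.7 CPM (log2 -9.31 ± 1.19, adjusted p = 0.0177). Both lie on the minus strand of chromosome 2 of mm10, Epb4.2 at chr2:121017891-121037072 and Tgm7 at chr2:121093565-121109795, with the transglutaminase gene Tgm5 between them (chr2:121046111-121085841). Tgm5 was called as well, with 0 counts in both Ins1-RFP+ sets and 9.98 and 10.8 CPM in the Ngn3-GFPhigh sets, at least 159-fold lower if the group is given a floor of 3 counts in all (adjusted p = 0.0375, not called when any set was left out, at 0.08 to 0.148). Without Ins1-RFP+ set 1 or set 2 the adjusted p of Tgm7 was 0.0963 and 0.0515. Rasgrp3, an activator of Ras proteins, had 0.707 and 0.336 CPM against 60.2 and 40.9 CPM (log2 -6.80 ± 1.13, adjusted p = 0.0311). Megf6, which encodes a protein with EGF-like repeats, had 4.36 and 2.2 CPM against 49.5 and 84.7 CPM (log2 -4.41 ± 0.68, adjusted p = 0.0243). The calls of Rasgrp3 and Megf6 were lost when any set was left out (adjusted p from 0.0536 to 0.15).

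Mdk, which encodes the growth factor midkine, had 8.25 and 19.1 CPM against 259.8 and 162 CPM (log2 -3.92 ± 0.39, adjusted p = 0.0031) and passed when each of the 4 sets was left out in turn (0.00183 to 0.0127). Clps, which encodes colipase, a cofactor of pancreatic lipase, had 2.83 and 3.75 CPM against 218 and 92.1 CPM (log2 -5.52 ± 0.65, adjusted p = 0.00892, 0.075 without Ins1-RFP+ set 1). The 12 acinar markers summed to 127 and 78.5 CPM in the Ins1-RFP+ sets, in which most was Bhlha15, and to 91.5 and 10.3 CPM in the Ngn3-GFPhigh sets, and their part in the Clps result was not tested. Mfap4, a glycoprotein of elastic fibres, had 0 and 1.77 CPM against 122 and 23.7 CPM (log2 -5.98 ± 0.93, adjusted p = 0.0243). It was not called without Ins1-RFP+ set 1 (0.0903) or Ngn3-GFPhigh set 1 (0.0669). The sum over 9 mesenchyme markers was 5.42 and 5.61 CPM in the Ins1-RFP+ sets and 49.2 and 119 CPM in the Ngn3-GFPhigh sets, with 3 members at 0 throughout, and its part in the Mfap4 result was not tested.

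The list of late precursor genes, meant for a stage after Neurog3, gave 4 calls among 10 members, all lower (background 0.411%). Its median log2 fold change was -1.13. Peg10, an imprinted gene derived from a retrotransposon, had 2.47 and 9.09 CPM against 141 and 219.7 CPM (log2 -4.88 ± 0.66, adjusted p = 0.0177). Cck, which encodes the peptide cholecystokinin, had 4.59 and 25 CPM against 256 and 97.8 CPM (log2 -3.53 ± 0.66, adjusted p = 0.0483). The transcriptional corepressor gene Runx1t1 had 59.2 and 41 CPM against 152 and 173 CPM (log2 -1.70 ± 0.28, adjusted p = 0.027), and Celf3, which encodes a splicing regulator, had 18.3 and 17.7 CPM against 58.4 and 61.3 CPM (log2 -1.74 ± 0.25, adjusted p = 0.0184). Without Ins1-RFP+ set 1 none of the 4 was called (0.0747, 0.134, 0.0797 and 0.108 in the same order), and without Ngn3-GFPhigh set 1 only Peg10 was (0.0352, against 0.21, 0.0899 and 0.0786). Runx1t1 also missed the threshold without Ins1-RFP+ set 2 (0.0927) or Ngn3-GFPhigh set 2 (0.102), and Celf3 without the latter (0.0725). Fev, the transcription factor that marks this stage, differed between the Ngn3-GFPhigh sets (276 and 61.2 CPM) and stood at 45.5 and 37.4 CPM in Ins1-RFP+ cells (log2 -2.03 ± 0.59, adjusted p = 0.19). The list name does not place each called member. At 100 CPM, Cck was in 6 of 11 Ngn3-GFPhigh cells with Neurog3 and Celf3 in 5, against 3 for Runx1t1 and 0 for Peg10. Peg10 also reached that level in 30 of 36 Gcg-GFP+ cells.

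Alpha cell genes stood lower in the Ins1-RFP+ cells, with a median log2 fold change of -1.80 over 13 members, 12 of them negative, 8 below in both sets (background 20.7%) and 0 called. Gcg, the glucagon gene, had 13.4 and 20.6 CPM against 852 and 11016 CPM (adjusted p = 0.239). The alpha cell regulators Irx2 (0.118 and 1.04 CPM against 8.85 and 38 CPM, adjusted p = 0.0558) and Etv1 (0.236 and 7.05 CPM against 66.3 and 195 CPM, adjusted p = 0.0555) came nearest the threshold. Among other peptides, Npy stood above in both Ins1-RFP+ sets, at 1311 and 1379 CPM against 155 and 303 CPM (log2 2.55 ± 0.84, adjusted p = 0.26). Ghrl, the ghrelin gene, had 0.353 and 9.83 CPM against 0 and 38 CPM, and Sst, the somatostatin gene, 20.4 and 1.34 CPM against 0.147 and 19.7 CPM, each with overlapping sets.

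Cell cycle genes gave 1 call. Of 16 S phase genes 1 was called, lower (background 0.411%). It was Mcm3, a subunit of the replicative helicase, at 0.236 and 0.061 CPM against 41.8 and 5.4 CPM (log2 -7.74 ± 1.42, adjusted p = 0.0465). Only 2 of 51 Ngn3-GFPhigh cells and 0 of 39 Ins1-RFP+ cells reached 100 CPM of Mcm3. Leaving out any set but Ngn3-GFPhigh set 2 gave an adjusted p of 0.136 to 0.183. None of 18 G2/M genes was called (edgeR, background 0.518%, 1 at an unadjusted p under 0.05), and Mki67, the proliferation marker, reached 100 CPM in 0 of 39 and 1 of 51 cells. Oxidative phosphorylation genes had small log2 fold changes, with a median of -0.11 and a range of -0.59 to 0.41 over 18 members, 13 of them negative. Both Ins1-RFP+ sets were below both Ngn3-GFPhigh sets in 9 members (20.7% of all genes) and above them in 1 (18.7% of all genes). Of the 18, 0 were called (background 0.518%) and 2 had an unadjusted p under 0.05 (2102 of all 17762 genes did). Of the 14 Notch pathway genes 0 were called (background 0.518%), with 4 at an unadjusted p under 0.05, against 2102 of all 17762 genes. The Notch ligand gene Dll3, given among the closing observations, was called lower but is not in this list.

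Imprinted genes, which are expressed from 1 parental copy, gave 2 calls among 16 members, both lower (background 0.411%). They were Peg10, above, and H19, a long noncoding RNA, at 0.118 and 0.244 CPM against 25 and 7.76 CPM (log2 -6.26 ± 0.97, adjusted p = 0.0243), which was not called without Ins1-RFP+ set 1, Ins1-RFP+ set 2 or Ngn3-GFPhigh set 1 (0.148, 0.0927 and 0.0783). Others stood the opposite way. Nnat, which encodes the ER proteolipid neuronatin, stood at 8469.9 and 11771 CPM against 2245 and 4081 CPM (log2 1.68 ± 0.49, adjusted p = 0.19). Dlk1 and Meg3, neighbours in 1 imprinted cluster, stood at log2 1.53 ± 0.63 and 0.81 ± 0.29 (adjusted p = 0.374 and 0.299).

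Single cells showed what the Ngn3-GFPhigh sort held. A level of 100 CPM of Ins2 was reached by all 39 Ins1-RFP+ cells, and by 8 of 21 cells (38.1%, exact Clopper-Pearson 95% interval 18.1% to 61.6%) and 15 of 30 cells (50%, 31.3% to 68.7%) in the Ngn3-GFPhigh sets. The same level of Neurog3 was reached by 0 of 10 and 1 of 29 Ins1-RFP+ cells (intervals up to 30.8% and 17.8%), and by 7 of 21 (33.3%, 14.6% to 57%) and 4 of 30 (13.3%, 3.76% to 30.7%) Ngn3-GFPhigh cells. In cells sorted on the glucagon reporter, Ins2 reached 100 CPM in 5 of 16 and 0 of 20 cells and Neurog3 in 0 of 16 and 0 of 20. The share for Ins2 in Ngn3-GFPhigh set 1 thus has an interval that overlaps that of Gcg-GFP+ set 1 (11.0% to 58.7%). Whether the Gcg-GFP+ cells made this Ins2 RNA themselves was not tested. The median total count of a cell was 939657 and 1023538 in the Ngn3-GFPhigh sets and 1046794 and 1356723 in the Gcg-GFP+ sets. The highest Ins2 level in a Gcg-GFP+ cell was 351 CPM, whereas the upper quartiles of the Ngn3-GFPhigh sets were 5186 and 13393 CPM. These intervals cover counting error over cells only. With 2 sets against 2 the exact two-sided permutation test cannot give a p below 0.333, which it gave for Ins2, Neurog3 and Pax4, while for Gcg, at 0 of 10 and 2 of 29 against 1 of 21 and 10 of 30 cells, it gave 0.667.

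At 100 CPM, Neurog3 and Ins2 were carried by different Ngn3-GFPhigh cells. This separation depends on the level chosen. At 10 CPM, Neurog3 was reached by 10 of 21 and 10 of 30 cells. Ins2 was reached by 14 of 21 and 21 of 30 at that level, so in each set some cells had both. Of the 51 cells, 11 reached 100 CPM of Neurog3, 23 reached it for Ins2, 0 for both and 17 for neither. With Ins1 in place of Ins2, 1 cell had both. The genes that stood lower in Ins1-RFP+ cells were spread over these classes in different ways. Among the 11 cells with Neurog3, 10 carried Smarcd2, 9 Mdk, 9 Cdkn1a, 8 Pax4, 7 Epb4.2, 7 Amotl2, 6 Megf6, 6 Clps, 6 Cck, 4 Tgm7 and 4 Rasgrp3. In the same order, the numbers were 3, 1, 2, 3, 0, 0, 0, 1, 1, 0 and 0 among the 23 cells with Ins2, and 5, 4, 8, 7, 1, 2, 0, 2, 4, 0 and 0 among the 17 with neither. All 4 of the cells with Tgm7 and all 4 with Rasgrp3 were cells with Neurog3, so at this level 4 cells each carried these genes. Other genes had another spread. Peg10 was in 0 of the 11 cells with Neurog3, 7 of the 23 with Ins2 and 9 of the 17 with neither, Runx1t1 in 3, 5 and 13, Fev in 3, 6 and 7, and Rgs4 in 0, 1 and 3. Mfap4 was in 4, 2 and 4 cells and Celf3 in 5, 1 and 6. Pdx1 reached 100 CPM in 7 of the 11, 20 of the 23 and 9 of the 17, and in 39 of 39 Ins1-RFP+ cells. Among the 10 largest increases, Hyou1 reached 100 CPM in 4 of the 11 cells with Neurog3, 20 of the 23 with Ins2 and 7 of the 17 with neither, and Atp2a2 in 3, 20 and 8. The others were in few Ngn3-GFPhigh cells: in the same order, Slc33a1 in 0, 6 and 2, Galnt18 in 0, 5 and 1, Igsf1 in 0, 5 and 0, Fkbp1b and Tmem229b each in 0, 3 and 1, and Bhlha15 in 0, 2 and 1. Trabd was in 2, 4 and 3 cells and Tyk2 in 0, 0 and 1.

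In the Ngn3-GFPhigh sort, cells with more insulin RNA had more RNA of the ER folding genes. The 16 genes of the list summed to a median of 4229 and 3882 CPM in the 13 and 15 Ngn3-GFPhigh cells under 100 CPM of Ins2, with hormone genes left out of the total. In the 8 and 15 cells over that level the medians were 12960 and 12851 CPM, and in the Ins1-RFP+ sets they were 19582 and 18615 CPM. Across the cells of a set, Spearman's rho between the sum of Ins1 and Ins2 and the sum of the 16 genes was 0.736 (21 cells) and 0.798 (30 cells) in Ngn3-GFPhigh cells. It was 0.127 (10 cells) and 0.376 (29 cells) in Ins1-RFP+ cells and -0.247 (16 cells) and -0.148 (20 cells) in Gcg-GFP+ cells. The highest insulin sum of a cell was 551 and 1857 CPM in the Gcg-GFP+ sets, against 106998 and 105741 CPM in the Ngn3-GFPhigh sets. The rho of Gcg-GFP+ cells therefore ranks cells with little insulin RNA, and their own hormone was not used. Cells of 1 set share their library preparation and are no replicates, so these rho values are descriptions. The total count of a cell also correlated with the ER sum at a rho of 0.709 in Ngn3-GFPhigh set 1 and -0.203 in its set 2, and its part was not tested.

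**Figure D4:**
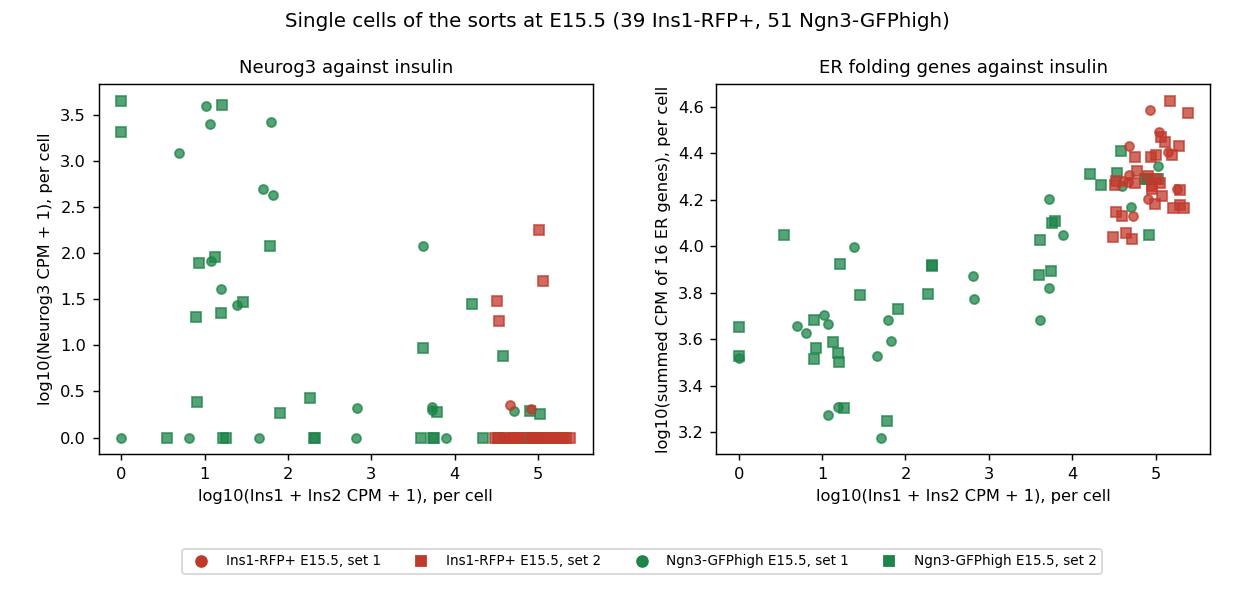
Single cells of E15.5, with log10 of the summed Ins1 and Ins2 CPM + 1 on the horizontal axis and, on the vertical axis, log10 of Neurog3 CPM + 1 (left) or log10 of the summed CPM of 16 ER folding genes (right); red marks 39 Ins1-RFP+ cells, green 51 Ngn3-GFPhigh cells, circles set 1 and squares set 2. The cells with the most Neurog3 are green and lie at the low end of insulin, and in the right panel the green cells with more insulin lie higher, towards the red cells.

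The Gcg-GFP+ cells show the same genes in another hormone-producing cell of that day. This second comparison shares the Ins1-RFP+ sets with the first, so it is given side by side and not as separate support. It called 398 of 17762 genes (2.24%), 227 higher in Ins1-RFP+ cells (1.28%) and 171 lower (0.963%). Hsp90b1 stood at 983 and 1228 CPM in the Gcg-GFP+ sets, and Ins1-RFP+ cells were higher by log2 1.36 (adjusted p = 0.00981). Hyou1 (116 and 148 CPM, log2 2.43, adjusted p = 0.00241) and Atp2a2 (226 and 152 CPM, log2 2.80, adjusted p = 0.00264) were higher in Ins1-RFP+ cells as well, as was Igsf1 (62.9 and 48.1 CPM, log2 2.95, adjusted p = 0.0157). The ER list had a median log2 of 1.03 in this comparison, with 2 of 16 members called higher, Hsp90b1 and Creld2.

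The genes that were low in Ins1-RFP+ cells did not share 1 level in Gcg-GFP+ cells. Neurog3 (0.841 and 2.24 CPM), Epb4.2 (0.168 and 0.485 CPM), Tgm7 (0 CPM in both sets) and Megf6 (2.97 and 0.671 CPM) were near 0 there too, and none was called between the 2 hormone sorts (adjusted p from 0.29 for Neurog3 to 0.611 for Epb4.2). Peg10 (632 and 563 CPM, log2 -6.61, adjusted p = 0.00146), Mdk (127 and 92.6 CPM, log2 -2.98, adjusted p = 0.00264), Clps (109.7 and 142 CPM, log2 -5.22, adjusted p = 0.00225) and Cck (141 and 102 CPM, log2 -2.99, adjusted p = 0.0386) were lower in Ins1-RFP+ than in Gcg-GFP+ cells. Smarcd2 and Pax4 had the opposite order: Ins1-RFP+ cells were above Gcg-GFP+ cells, at log2 2.63 for Smarcd2 (adjusted p = 0.00461), and Pax4 had 0 counts in both Gcg-GFP+ sets (adjusted p = 0.00146). Pdx1 (10.3 and 34.3 CPM), Nnat (19.5 and 20.2 CPM) and Mlxipl (72.6 and 89.3 CPM), which were not called against Ngn3-GFPhigh cells, were higher in Ins1-RFP+ than in Gcg-GFP+ cells by log2 4.59, 9.0 and 3.83 (adjusted p = 0.00168, 0.000219 and 2.06e-05).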

How the data were processed

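Single sorted pancreatic cells were sequenced with Smart-seq2 after PCR amplification, per the labels' protocols. Smart-seq2 reads carry no molecular identifiers, so intervals and floors cover counting error only. The authors deposited whole-number read counts per gene, and the submitters' processing notes name TopHat2 2.1.0, Bowtie2, HTSeq 0.6.0 and the build mm10. The deposited TPM values of the authors served for levels per length and 1 alternative. The role of each tool, the annotation and strand handling are not given in the sources used here. The table held 40824 genes and 92 ERCC rows, which were left out. A further 1768 columns of Smart-seq2 cells were not used.

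Counts were summed per set, the number before the cell number in a title, and no 2 cells had identical counts. Levels are CPM with TMM scaling. One edgeR 4.0.16 quasi-likelihood fit (R 4.3.3, filterByExpr) covered 12 sets of 5 groups (Ins1-RFP+, Ngn3-GFPhigh and Gcg-GFP+ of E15.5, Ngn3-GFPhigh of E13.5 and E14.5), leaving 7 residual degrees of freedom, with Benjamini-Hochberg adjustment over all 17762 genes tested. Each standard error was obtained by dividing a gene's log2 fold change by the square root of its F, and 95% intervals use the same error. On simulated counts with 50 genes changed per size, the fit recovered 14%, 60%, 68% and 94% of changes of 1, 2, 3 and 4 on the log2 scale, and called 0.0354% of unchanged genes. The changed genes were drawn only from those above a minimum level, and all other genes had the same mean in every group. These shares therefore do not cover rarer genes or the large differences between the real groups. Named genes are the 10 largest called changes in each direction reaching 50 CPM on average in either group and having sets that do not overlap, without Gm and Rik numbers and pseudogenes, plus members of 24 lists. Some list members are not reported here by name. Jph3, P4hb, Spcs3, Tgm5 and the genes of the closing observations were chosen after their values were seen. Members and lists were chosen with earlier results of these data known. Shares of cells used 100 CPM. The alternatives were other fits, scalings, filters, cells and sets. Gene coordinates are from GENCODE vM21 (mm10), which matched 39950 of the genes, and promoters from RefSeq.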

Additional observations from a re-analysis of the deposited data

How the results depend on the processing

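The number of genes called depended on the fit, while the direction of the 92 called genes held in each alternative that gave a value, except that Rasgrp3 had a log2 fold change of 2.70 with an equal number of cells (10) per set, where only part of the cells is used. Against Ngn3-GFPhigh cells, genes higher and lower in Ins1-RFP+ cells numbered 310 and 559 with DESeq2, 0 and 3 with all groups of E15.5 (1630 at an unadjusted p under 0.05), and 42 and 210 with limma on the authors' TPM. They numbered 0 and 0 with equal cells (699 at an unadjusted p under 0.05) and 0 and 1 with the 4 sets alone. Without cells that carry markers of other types, all of them duct and trunk markers, they numbered 1 and 7. Limma on log2 CPM averaged over cells called 212 higher, and the fit with no filter 117 lower. Leaving out 1 set gave 0 to 15 higher and 15 to 130 lower. Against Gcg-GFP+ cells the same order gave 857 and 904, 59 and 63, 655 lower with TPM, 53 and 18, 76 and 50, 127 and 96, and 534 and 586 with log2 CPM, and leaving out 1 set gave 112 to 183 higher and 77 to 293 lower. Members of the lists called higher and lower numbered 24 and 37 (DESeq2), 0 and 0 (E15.5), 18 lower (TPM), 0 and 0 (equal cells), 33 and 3 (log2 CPM), 6 and 15 (no filter), 0 and 0 (4 sets), 0 and 1 (without marker cells), and 0 to 2 and 1 to 13 with 1 set left out, against 2 and 9. The share of calls that were higher was 20.7%, against 35.7% with DESeq2, 76.3% with log2 CPM and 10.3% without Ins1-RFP+ set 2. Limma on TPM moved the median of all genes by -0.149. Deviations of set 1 from its group mean, taken across genes, correlated at 0.038 between Ins1-RFP+ and Ngn3-GFPhigh cells and at 0.018 between Ins1-RFP+ and Gcg-GFP+ cells. With 2 sets a group this cannot show whether sets of the same number share a batch. In a fit with a replicate block for set numbers, 21 genes were higher and 49 lower, and 5 list members were higher. The difference in the share of cells was 31.7 points at 10 CPM, 64 at 1000 CPM and 61.9 without Ngn3-GFPhigh set 2 for Ins2, -33.6 at 10 CPM for Neurog3 and -8.81 at 1000 CPM for Pax4. The cause of these shifts was not tested. Over 52 single genes and the alternatives, 503 values kept their direction and side of the threshold, 220 lost the call, 51 gained it and 1 turned. The 52 include genes not called in the main fit, which could not lose a call, so all 220 losses fell on called genes. Each called gene among them lost its call in 3 (Epb4.2 and Mdk) to 12 (Tyk2) of 15 alternatives.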

Other observations

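Further genes called lower in Ins1-RFP+ cells lie outside the lists and were chosen after their values were seen. Kit, which encodes the receptor of stem cell factor, had 36.5 and 56 CPM in the Ins1-RFP+ sets and 195 and 157 CPM in the Ngn3-GFPhigh sets (edgeR, adjusted p = 0.0249; 0.15, 0.027, 0.124 and 0.0571 without each of the 4 sets in turn). The Notch ligand gene Dll3 had 0.118 and 0.0915 CPM against 22.1 and 5.11 CPM (adjusted p = 0.0243; 0.141, 0.119, 0.0669 and 0.0111 in the same order). Serpinf1, which encodes the secreted factor PEDF, had 0 counts in both Ins1-RFP+ sets and 17.3 and 18.7 CPM in the Ngn3-GFPhigh sets, at least 277-fold lower if the group is given a floor of 3 counts in all (adjusted p = 0.0031; 0.0131, 0.0139, 0.0127 and 0.00783). Tmem171 had 0 counts against 69.2 and 23.4 CPM, at least 654-fold lower (adjusted p = 0.0465; 0.16, 0.143, 0.132 and 0.0648). Serpina1a, Serpina1b, Serpina1c and Serpina1e, of the alpha-1-antitrypsin family, were called lower with log2 values of -5.16 to -3.02, all missed the threshold without Ins1-RFP+ set 1 or without Ngn3-GFPhigh set 1, and their near-identical sequences make the level of each uncertain.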
